A study of Mus musculus with 35 samples.

Results

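The genes described here are 9 genes of natural killer (NK) and cytotoxic effector cells, Ncr1, Klrb1c, Klrd1, Nkg7, Gzma, Gzmb, Prf1, Eomes and Tbx21. They were taken by gene symbol from the deposited count and FPKM tables of mouse lung, where each symbol matched 1 of the 54532 genes listed. All 9 passed the filter on low counts in every comparison, and no library was at 0 for any of them, with 12 read pairs on Eomes as the lowest count and 1634 on Gzma as the highest.

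NK cells are innate lymphocytes that kill infected, transformed or stressed cells without prior priming, and the lung vasculature holds many of them. Activating receptors and inhibitory receptors on their surface together decide whether a target is attacked, and killing proceeds by the release of granules in which perforin opens the way for granzymes. The related factors T-bet and Eomes direct the maturation of these cells and the transcription of their granule genes, which cytotoxic T cells use as well.

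RNA of whole lungs was sequenced from 34 mice in 12 groups, given by genotype, sex and oxygen. Control mice were wild-type B6/129SJ2, Cav1-KO mice carried the global caveolin-1 knockout allele Cav1(tm1Mls/)J, and Cav1-RC mice carried a caveolin-1 knockout with Cav1 put back in endothelial cells, as a line obtained from another laboratory. Females and males were at least 3 months old and lived for 6 weeks in room air (normoxia) or in 10% oxygen (hypoxia). Of the groups, 10 held 3 mice, while the normoxia groups of Cav1-KO females and Cav1-RC females held 2.

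Whole lung mixes all lung cells with the blood inside it, so fewer NK cells and less RNA per NK cell cannot be told apart. Totals ran from 12425535 to 33343006 counts per library. Cav1 itself was at 284 to 394 FPKM in the 12 Control libraries, at 0.461 to 1.13 FPKM in the 11 Cav1-KO libraries and at 0.423 to 1.89 FPKM in the 11 Cav1-RC libraries, so that these ranges overlap and Cav1 counts do not separate Cav1-RC from Cav1-KO lungs. In 4 libraries Xist or the Y chromosome genes went against the labelled sex: male Control hypoxia replicate 2 and male Cav1-RC normoxia replicates 1 and 2 had Xist at female levels, and female Cav1-KO hypoxia replicate 2 had 6.83% of the Y chromosome reads of a male. In addition, 12 libraries came from animals whose numbers are on the study's list of western blot samples. All 3 hypoxia libraries of Control males and all 6 of Cav1-KO mice were on it, as were 1 normoxia and 1 hypoxia library of Control females and 1 normoxia library of Cav1-RC females, so in Cav1-KO mice and in Control males the list and hypoxia cannot be told apart. Libraries of both kinds stood together in these last 3 groups only.

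On the FPKM scale, which corrects for gene length, Gzma, a granule protease, had the highest level of the 9 genes, with a median of 19.5 FPKM over the 34 libraries. Nkg7, a granule membrane protein that aids degranulation, followed at 7.36 FPKM, and Klrd1, the CD94 chain that pairs with NKG2 receptors, at 5.35 FPKM. Ncr1, the activating receptor NKp46, and Gzmb, the protease that starts apoptosis in the target, had nearly equal medians of 3.93 and 3.87 FPKM. Prf1, which encodes perforin, had a median of 2.54 FPKM. Tbx21, which encodes T-bet, and Klrb1c, which encodes NK1.1, lay together at 1.06 and 1.05 FPKM, and Eomes was lowest at 0.492 FPKM. Neighbours in this order overlapped widely over the libraries, and Gzma ranged from 7.68 FPKM in a male Cav1-RC hypoxia library to 76.0 FPKM in a female Control normoxia library.

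**Figure D1:**
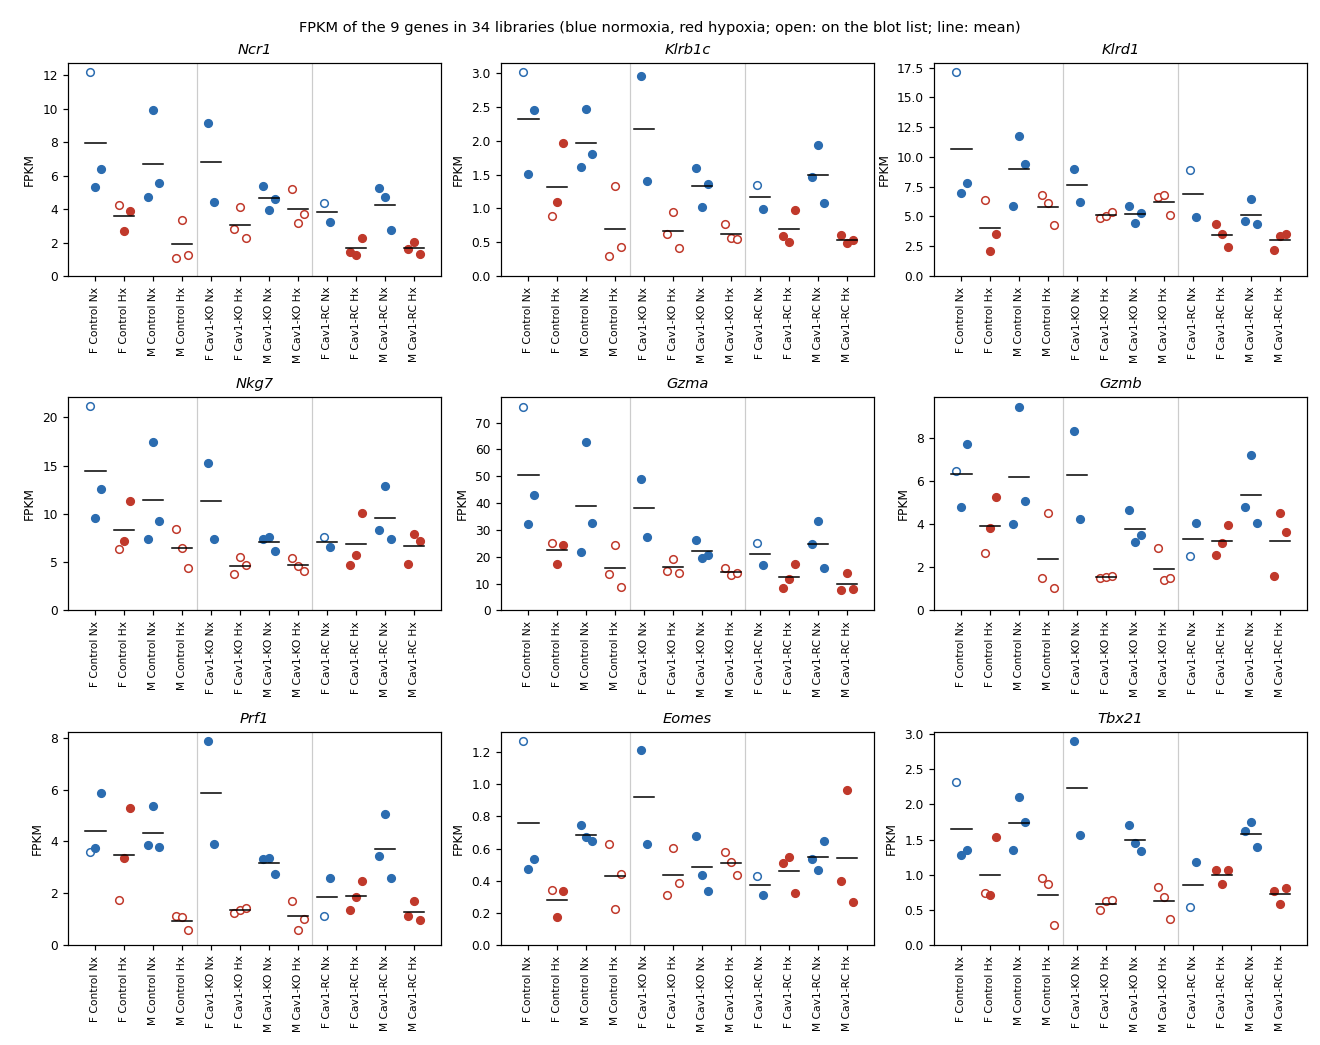
FPKM (linear axis from 0) of each of the 9 genes in 34 libraries by group, with F and M for female and male, Nx and Hx for normoxia and hypoxia, open points for libraries on the blot list and lines for group means. For Ncr1 the male Cav1-RC hypoxia libraries lie between 1.31 and 2.02 FPKM, below the 2.75 to 5.28 FPKM of normoxia.

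The genes lie on 7 chromosomes of mm10. Klrb1c (chr6:128778485-128789215, minus strand) and Klrd1 (chr6:129591782-129598775, plus strand) both lie in the NK gene complex, whose related lectin-like genes differ between mouse strains, so reads could be shared with close copies there. Ncr1 spans chr7:4337724-4345164 and Nkg7 chr7:43437073-43438249, both on the plus strand, and Prf1 lies at chr10:61297833-61304680, also on the plus strand. Gzma (chr13:113093825-113100981) and Gzmb (chr14:56258838-56262260) lie on the minus strand, as does Tbx21 (chr11:97098071-97115331), whereas Eomes (chr9:118478212-118486132) lies on the plus strand. Values are per gene over all exons, so no single transcript is singled out.

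Promoter windows of 300 bases around the start that RefSeq lists were taken on GRCm38.p6, the same assembly as mm10, for 8 of the 9 genes, Klrd1 having no entry. RefSeq's start can differ from that of the tables: the window of Klrb1c lies wholly inside the gene as given above, and that of Gzmb wholly before its start. They were searched on both strands for the core letters TGTGGT of RUNX factors, since Runx3 acts in cytotoxic lymphocytes, and for the core letters GGTGTG of T-box factors such as T-bet and Eomes. The RUNX letters were present in the windows of 6 of these genes (Ncr1, Klrb1c, Nkg7, Gzma, Gzmb and Prf1) and in 16.8% of all 32851 windows of that length, while the T-box letters were present only in that of Nkg7 and in 19% of all windows. The windows shown are those of the 4 genes called in most hypoxia comparisons below, with the RUNX letters in capitals on either strand. Those of Ncr1 and Prf1 lie at chr7:4337465-4337764 and chr10:61297586-61297885 on the plus strand, and those of Klrb1c and Tbx21 at chr6:128788592-128788891 and chr11:97115282-97115581 on the minus strand.
Ncr1: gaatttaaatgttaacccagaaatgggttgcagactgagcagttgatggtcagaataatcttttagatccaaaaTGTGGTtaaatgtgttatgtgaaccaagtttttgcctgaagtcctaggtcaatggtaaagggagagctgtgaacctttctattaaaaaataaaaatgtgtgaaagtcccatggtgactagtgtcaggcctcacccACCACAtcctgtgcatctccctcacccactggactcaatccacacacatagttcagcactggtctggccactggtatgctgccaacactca
Prf1: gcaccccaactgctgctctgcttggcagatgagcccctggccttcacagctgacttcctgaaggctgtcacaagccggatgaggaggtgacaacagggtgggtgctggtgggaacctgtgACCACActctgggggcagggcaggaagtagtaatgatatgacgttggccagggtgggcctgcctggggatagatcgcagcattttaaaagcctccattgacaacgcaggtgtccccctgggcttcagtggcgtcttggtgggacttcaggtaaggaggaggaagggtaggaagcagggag
Klrb1c: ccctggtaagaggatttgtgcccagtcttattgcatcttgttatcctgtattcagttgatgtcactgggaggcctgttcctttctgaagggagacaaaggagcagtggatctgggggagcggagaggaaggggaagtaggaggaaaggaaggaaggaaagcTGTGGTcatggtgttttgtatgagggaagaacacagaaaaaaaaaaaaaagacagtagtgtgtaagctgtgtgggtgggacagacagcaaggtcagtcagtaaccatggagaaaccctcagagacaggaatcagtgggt
Tbx21: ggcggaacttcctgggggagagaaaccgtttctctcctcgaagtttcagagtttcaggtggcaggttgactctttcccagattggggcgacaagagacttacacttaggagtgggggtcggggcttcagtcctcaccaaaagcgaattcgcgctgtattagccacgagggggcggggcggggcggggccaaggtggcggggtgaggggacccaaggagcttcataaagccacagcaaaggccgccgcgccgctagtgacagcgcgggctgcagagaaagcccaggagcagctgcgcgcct
Ncr1 has a match on each strand, Prf1 1 on the opposite strand and Klrb1c 1 on the strand shown, and the window of Tbx21 has none. A match of 6 letters is a description of the sequence and no sign of binding.

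Most calls of these genes came from hypoxia against normoxia. Over its 6 comparisons, 17 of 54 pairs of gene and comparison (31.5%) were called lower and none higher, where a call needs an absolute log2 fold change above 1 and an adjusted p under 0.05 in edgeR's quasi-likelihood test over all genes. Over all genes tested, 3.48% of such pairs were called lower. Of the 54 log2 fold changes, 49 were below 0. Whether every library of a group was lower than every library of another was read on the CPM scale, for these genes and for all genes. CPM are counts scaled to the library total as adjusted by edgeR's TMM factor, and FPKM is named where it differs. Prf1 was called in 4 comparisons, Ncr1, Klrb1c and Tbx21 in 3, Gzma in 2, Nkg7 and Gzmb in 1, and Klrd1 and Eomes in none. Of the 17 calls, 12 come from the 3 comparisons in which every hypoxia library and no normoxia library is on the blot list (Control males and Cav1-KO females and males). Over all 18 pairwise comparisons 20 pairs of gene and comparison were called, against 7 with a term for that list and 4 to 8 by limma on log2 FPKM. With that term fewer of all genes were called as well, in Cav1-KO females 0.277% in either direction where 7% were called lower without it. The share of all genes that limma called is not given here. Each comparison rests on 2 or 3 mice a group.

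In Control males, perforin and NKp46 transcripts fell in hypoxia. Prf1 was at 3.88, 5.36 and 3.79 FPKM in normoxia and at 1.13, 1.08 and 0.554 FPKM in hypoxia. The groups do not overlap, and the log2 fold change was -2.23 ± 0.31 (SE, n = 3 and 3, edgeR adjusted p = 0.00868). Ncr1 was at 4.71, 9.91 and 5.55 FPKM in normoxia and at 1.09, 3.37 and 1.23 FPKM in hypoxia. Again all hypoxia libraries were lower, with a log2 fold change of -1.86 ± 0.48 (edgeR adjusted p = 0.0387). The other 7 genes had log2 fold changes between -0.63 and -1.56 that did not pass, so 2 of 9 were called lower where 3.93% of all genes tested were. In 4 of the 9 genes every hypoxia library was lower by CPM, a pattern that 20.1% of all genes showed, and in Eomes by FPKM as well (at most 0.628 against at least 0.644 FPKM). The median log2 fold change was -1.33 against -0.0040 over all genes. DESeq2 called 6 of 9, all lower, against 7.74% of all genes in either direction. Without the library whose sex markers go against its label, hypoxia replicate 2, which had the highest Ncr1, Klrb1c, Gzma and Gzmb of its group, 5 of 9 genes were called, against 9.37% of all genes called in either direction, whereas leaving out any other library left only Prf1, against 1.11% to 4.61% of all genes. All 3 hypoxia libraries are on the blot list. With a term for that list in 1 fit over 34 libraries, Prf1 was at -1.29 (edgeR adjusted p = 0.14) and not called, while Ncr1 (-2.52), Klrd1 (-1.75) and Gzma (-1.97) were called (edgeR adjusted p = 0.00599, 0.00509 and 0.0221), against 1.71% of all genes. Erythroid markers summed to 1451 to 1832 CPM in normoxia and to 176 to 665 CPM in hypoxia, with 4 of 7 tested called lower, and neutrophil markers to 79.7 to 112 CPM and 173 to 217 CPM, with 4 of 8 called higher. Their part in the result was not tested.

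In Control females no gene was called by edgeR, against 0.0175% of all genes, with 4 at an unadjusted p under 0.05 and 0 called by DESeq2, which called 105 of 17136 genes. Ncr1 was at 12.2, 5.31 and 6.37 FPKM in normoxia and at 4.23, 2.71 and 3.91 FPKM in hypoxia. Gzma was at 76.0, 32.3 and 43.2 FPKM in normoxia and at 25.3, 17.3 and 24.5 FPKM in hypoxia. Both genes, and likewise Klrd1 and Eomes, were lower in every hypoxia library, which makes 4 of 9 genes where 4.19% of all genes tested were lower in this way. Their log2 fold changes were -1.16 ± 0.38 for Ncr1, -1.43 ± 0.52 for Klrd1, -1.20 ± 0.34 for Gzma and -1.46 ± 0.53 for Eomes (SE, n = 3 and 3), with edgeR adjusted p of 0.738 for Gzma and 0.871 for the other three. All 9 values were below 0 and their median was -0.86, against -0.02 over all genes. Without the 2 libraries on the blot list Klrd1 was called, at -1.47 (edgeR adjusted p = 0.019), where 8.47% of all genes were called in that fit. With the blot list term over 34 libraries Klrd1 and Eomes were called, at -1.41 and -1.36 (edgeR adjusted p = 0.00211 and 0.0423), beside 573 of 19870 genes.

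In Cav1-KO females 7 of the 9 genes fell, the most in any comparison. Every gene was lower in each of the 3 hypoxia libraries than in both normoxia libraries, a pattern shared by 31.7% of all genes tested in this comparison. Over all genes, 7% were called lower. Granzyme B transcripts of Gzmb were at 8.31 and 4.25 FPKM in normoxia and at 1.48, 1.55 and 1.57 FPKM in hypoxia. This is a log2 fold change of -2.04 ± 0.31 (SE, n = 3 and 2, edgeR adjusted p = 0.0035). Prf1 was at 7.88 and 3.90 FPKM in normoxia and at 1.24, 1.34 and 1.42 FPKM in hypoxia, a log2 fold change of -2.15 ± 0.30 (edgeR adjusted p = 0.00265). Tbx21 was at 2.90 and 1.57 FPKM in normoxia and at 0.495, 0.628 and 0.641 FPKM in hypoxia, a log2 fold change of -1.93 ± 0.34 (edgeR adjusted p = 0.00554). Of the 2 normoxia libraries, replicate 1 was higher for all 9 genes. The receptor genes had log2 fold changes of -1.16 ± 0.36 for Ncr1 and -1.73 ± 0.43 for Klrb1c (edgeR adjusted p = 0.0424 and 0.0193), and Gzma and Nkg7 had -1.26 ± 0.25 and -1.29 ± 0.33 (edgeR adjusted p = 0.00885 and 0.0217). Klrd1 had -0.58 ± 0.21 and Eomes -1.09 ± 0.41, and neither was called, at edgeR adjusted p of 0.0683 and 0.0735. Without normoxia replicate 1, 2 of 9 genes were called (against 6.54% of all genes in either direction), without hypoxia replicate 1, 5 were (against 12.5%), and without the hypoxia library with Y chromosome reads 7 were (against 12.5% as well). All 3 hypoxia libraries are on the blot list and neither normoxia library is. With the blot list term, no gene of these 7 was called and Klrd1 was, at -1.71 (edgeR adjusted p = 0.0302), against 0.277% of all genes. Macrophage markers summed to 951 to 1246 CPM in normoxia and to 423.1 to 600 CPM in hypoxia, with 6 of 10 called lower. Summed markers of lung epithelium, endothelium and stroma went from 31086 to 34223 CPM up to 57588 to 73653 CPM, with 2 of 10 called higher. In that list Scgb1a1 had the highest levels, 13137 to 69476 CPM over all libraries. The median log2 fold change of the list lay between -0.018 and 0.145 in the hypoxia comparisons. Of the erythroid markers 4 of 8 were called higher. The part of these cell types in the result was not tested.

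In Cav1-KO males perforin, T-bet and NK1.1 transcripts fell. Prf1 was at 3.34, 3.37 and 2.76 FPKM in normoxia and at 1.70, 0.589 and 1.00 FPKM in hypoxia, a log2 fold change of -1.498 ± 0.32 (SE, n = 3 and 3, edgeR adjusted p = 0.00412). Tbx21 and Klrb1c were also called, at -1.26 ± 0.31 and -1.07 ± 0.26 (edgeR adjusted p = 0.00832 and 0.00789). That makes 3 of 9 genes called lower against 8.97% of all genes. In 6 of 9 genes every hypoxia library was lower, against 32.6% of all genes. Gzma (-0.63 ± 0.14), Nkg7 (-0.59 ± 0.19) and Gzmb (-0.95 ± 0.31) had adjusted p under 0.05 but smaller folds. Klrd1 was at 5.90, 4.45 and 5.31 FPKM in normoxia and at 6.65, 6.83 and 5.15 FPKM in hypoxia, and its log2 fold change was 0.24 ± 0.18. Ncr1 had -0.20 ± 0.22 and Eomes 0.08 ± 0.31. These 3 genes overlapped between the groups. Leaving out hypoxia replicate 3 left 1 of 9 genes called, Prf1, against 18.1% of all genes in either direction, and leaving out any other library 2 to 4. All 3 hypoxia libraries are on the blot list and no normoxia library is. With the blot list term none of the 9 genes was called, against 0.398% of all genes, with Prf1 at -0.58, Tbx21 at -1.14 and Klrb1c at -1.19 (edgeR adjusted p = 0.669, 0.347 and 0.391). Erythroid markers moved far in this comparison: their summed level was 1392 to 2047 CPM in normoxia and 1620 to 21034 CPM in hypoxia, with 7 of 8 tested called higher. Neutrophil markers were called higher in 5 of 9, and summed lung markers were 34237 to 35325 CPM in normoxia and 61753 to 69977 CPM in hypoxia with 1 of 10 called higher and 1 lower. Scgb1a1 had the highest levels of the lung list, 13137 to 69476 CPM over all libraries, and the list's median log2 fold change was at most 0.145 in any hypoxia comparison. The part of these cell types in the result was not tested.

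In Cav1-RC males, whose 6 libraries are all outside the blot list, 5 of 9 genes were called lower against 0.856% of all genes tested. Ncr1 was at 5.28, 4.73 and 2.75 FPKM in normoxia and at 1.63, 2.02 and 1.31 FPKM in hypoxia, a log2 fold change of -1.36 ± 0.28 (SE, n = 3 and 3, edgeR adjusted p = 0.0234). Klrb1c was at 1.47, 1.94 and 1.09 FPKM in normoxia and at 0.600, 0.493 and 0.526 FPKM in hypoxia, a log2 fold change of -1.46 ± 0.27 (edgeR adjusted p = 0.0156). Gzma, Prf1 and Tbx21 had -1.32 ± 0.30, -1.54 ± 0.29 and -1.13 ± 0.22 (edgeR adjusted p = 0.0313, 0.018 and 0.0202). In 6 of 9 genes every hypoxia library was lower, the 5 called genes and Klrd1, against 17% of all genes. Eomes was at 0.534, 0.464 and 0.646 FPKM in normoxia and at 0.398, 0.963 and 0.265 FPKM in hypoxia, and its log2 fold change was -0.00076 ± 0.43. Of the normoxia libraries, replicates 1 and 2 had the sex markers of females. Without both, which leaves 1 normoxia library, the median log2 fold change went from -1.13 to -0.68. Leaving out either of them or hypoxia replicate 3 left no gene called, against 1.01% to 1.48% of all genes in either direction, and leaving out hypoxia replicate 2 left 3, against 1.39%. With the blot list term, Prf1 alone was called, at -1.56 (edgeR adjusted p = 0.0256), against 0.805% of all genes. The same fit without the term and limma called 0, counts that are not set against a share over all genes here. Erythroid markers were lower in this comparison, with 6 of 8 called, and ranged from 2580 to 4621 CPM in normoxia and from 388 to 828 CPM in hypoxia. Macrophage markers ranged from 519 to 759 CPM and from 289 to 434 CPM, with 3 of 10 called lower, and 2 of 8 neutrophil markers were called higher. B cell markers ranged from 173 to 199.5 CPM in normoxia and from 104 to 119 CPM in hypoxia, and T cell markers from 191 to 216 CPM and from 145 to 166 CPM, both without overlap. Their part was not tested.

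In Cav1-RC females no gene was called by edgeR, against 0.0285% of all genes, with 2 at an unadjusted p under 0.05 and 0 called by DESeq2, which called 144 of 17566 genes. Ncr1 and Klrd1 were lower by CPM in each of the 3 hypoxia libraries, 2 of 9 genes where 9.46% of all genes were, at -1.20 ± 0.41 and -1.02 ± 0.41 (SE, n = 3 and 2, edgeR adjusted p = 0.822 and 0.935). Ncr1 was at 4.35 and 3.25 FPKM in normoxia and at 1.43, 1.28 and 2.28 FPKM in hypoxia. By FPKM Klrb1c was lower in each as well, at most 0.984 against at least 0.996 FPKM. Prf1 was at 1.13 and 2.60 FPKM in normoxia and at 1.33, 1.84 and 2.49 FPKM in hypoxia. Its groups overlap, its log2 fold change was 0.01 ± 0.47, and the lower of the 2 normoxia values belongs to the library on the blot list. The median over the 9 genes was -0.06.

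**Figure D2:**
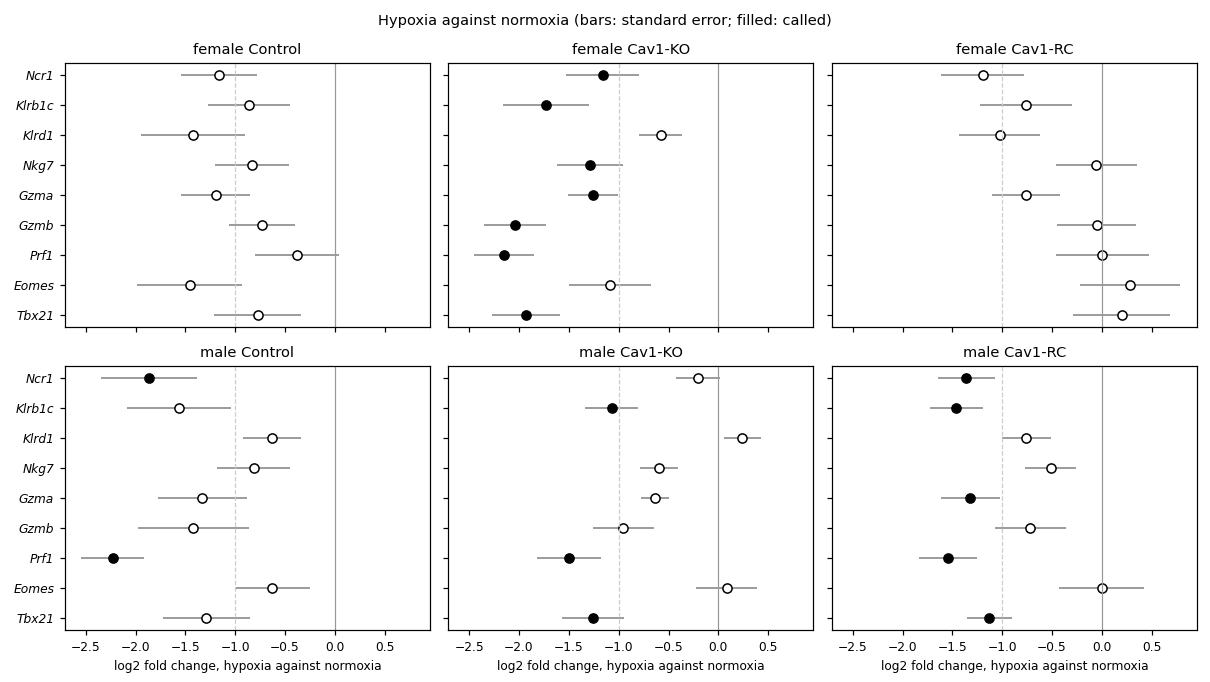
Log2 fold change of the 9 genes in hypoxia against normoxia from edgeR, for females (top) and males (bottom) of the 3 genotypes, with bars for the standard error, filled points for called genes and a dashed line at -1. All 9 points lie below 0 in Control mice of both sexes, in Cav1-KO females and in Cav1-RC males, and Klrd1 and Eomes lie above 0 in male Cav1-KO mice at 0.24 and 0.08.

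In Control mice with the sexes averaged, all 9 log2 fold changes were between -0.81 and -1.495 and only Prf1 was called, at -1.29 ± 0.28 (SE, edgeR adjusted p = 0.0467), against 0.453% of all genes called lower. The Prf1 call was lost without any 1 of the 6 male libraries, female normoxia replicate 2 or 3 or female hypoxia replicate 2. Apart from the fit without male hypoxia replicate 2, these fits called 0 of the 9 genes against 0.511% to 0.604% of all genes in either direction. Without male hypoxia replicate 2, 4 other genes were called (Ncr1, Klrb1c, Gzma and Gzmb), against 1.28% of all genes in either direction, and without female hypoxia replicate 1, 3 were (Ncr1, Klrd1 and Prf1), against 2.2%. In Cav1-KO mice 4 of 9 were called lower against 8.46% of all genes: Prf1 at -1.83 ± 0.24, Tbx21 at -1.60 ± 0.24, Gzmb at -1.501 ± 0.23 and Klrb1c at -1.40 ± 0.26 (edgeR adjusted p between 5.16e-05 and 0.000543). In Cav1-RC mice 2 of 9 were called lower against 0.39% of all genes, the receptor genes Ncr1 at -1.28 ± 0.24 and Klrb1c at -1.11 ± 0.24 (edgeR adjusted p = 0.0201 and 0.0387), while Gzmb had -0.39 ± 0.28 and Tbx21 -0.47 ± 0.23. In Cav1-RC mice 0 were called without female hypoxia replicate 2, male hypoxia replicate 3 or male normoxia replicate 1 or 2, against 0.645% to 0.9% of all genes in either direction. Without female normoxia replicate 2, 4 were called, against 1.99%. Without 1 female replicate 2 of either oxygen level, 6 were called in Cav1-KO mice, against 16.6% and 17.9%. Medians over the 9 genes were -1.06, -0.95 and -0.77, the last of which was -0.40 without female normoxia replicate 2.

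The difference of these responses between genotypes was tested directly. From Cav1-KO to Cav1-RC the response of 3 of 9 genes was called higher, Gzmb by 1.11 ± 0.38, Prf1 by 1.05 ± 0.40 and Tbx21 by 1.12 ± 0.34 on the log2 scale (SE, edgeR adjusted p = 0.0268, 0.0393 and 0.012), against 8.29% of all genes. Klrd1 went the other way by -0.73 ± 0.28 (edgeR adjusted p = 0.0393), short of the threshold on the fold. All 6 Cav1-KO hypoxia libraries are on the blot list and no Cav1-RC hypoxia library is. With a term for that list in 1 fit over the 34 libraries, the differences were 0.62 for Gzmb, -0.041 for Prf1 and 0.98 for Tbx21 and none was called (edgeR adjusted p = 0.775, 0.994 and 0.512). None of the 3 was called without replicate 1 of female Cav1-KO normoxia or of female Cav1-RC normoxia, against 15.1% and 9.25% of all genes in either direction, and 1 gene was called when male Cav1-KO hypoxia replicate 3, male Cav1-KO normoxia replicate 1, male Cav1-RC hypoxia replicate 2 or male Cav1-RC normoxia replicate 3 was left out, against 16.2% to 17.1%. Between Cav1-KO and Control no gene was called by edgeR or DESeq2, against 8.46% of all genes, and between Cav1-RC and Control none against 0.0934%, with 1 gene in each at an unadjusted p under 0.05. In the former, Klrd1 was called without female Control hypoxia replicate 1 and Ncr1 without male Control hypoxia replicate 2, against 17.9% and 7.82% of all genes.

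No gene passed edgeR's or DESeq2's test of the female minus male difference in any of the 9 comparisons, where 0% of all genes did by edgeR and 1 to 353 genes by DESeq2, and unadjusted p under 0.05 was reached by 0 to 5 of the 9 genes in a comparison. The difference with most such genes was that of Cav1-RC against Cav1-KO in normoxia, where the median female minus male log2 fold change was -1.12. With 1 library left out it ran from -1.55 to -0.53, the latter without female Cav1-KO normoxia replicate 1. Male Cav1-RC normoxia replicates 1 and 2 had Xist at female levels, as had male Control hypoxia replicate 2. Differences that use these groups therefore compare labelled sexes. Both female groups of Cav1-RC against Cav1-KO in normoxia hold 2 libraries. Without female Cav1-RC normoxia replicate 2, 3 genes were called there (Gzmb, Prf1 and Tbx21), against 12.5% of all genes. The same library left out gave 2 calls, Prf1 and Tbx21, in the sex difference of the Cav1-RC response to hypoxia, against 6.14%. Without female Control hypoxia replicate 1, Prf1 was called in 3 other sex differences, against 15% to 15.6% of all genes.

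The libraries on the blot list differed from the others of their groups in the balance of these genes. In female Control hypoxia, the library on the list had 6.38 FPKM of Klrd1 where the other 2 averaged 2.79 FPKM, but 1.72 FPKM of Prf1 where the others averaged 4.34 FPKM. In female Cav1-RC normoxia, Klrd1 was at 8.90 FPKM on the list and 4.93 FPKM off it, and Prf1 at 1.13 and 2.60 FPKM. In female Control normoxia, Klrd1 was at 17.1 FPKM on the list against a mean of 7.39 FPKM, and Prf1 at 3.60 against 4.82 FPKM. In each of the 3 groups Klrd1, Ncr1, Gzma and Eomes were thus higher and Prf1 lower in the library on the list. A term for the list in 1 fit over the 34 libraries gave 1.13 ± 0.22 for Klrd1 (SE, edgeR adjusted p = 0.000196) and -0.92 ± 0.32 for Prf1 (edgeR adjusted p = 0.0193) on the log2 scale, with the other 7 genes between -0.41 and 0.84 and none of them past 0.05. That term rests on 3 listed libraries, and over all 19870 genes of that fit it called 1451 higher and 1234 lower. With it, Control hypoxia against normoxia with the sexes averaged gave 5 called genes where 4.84% of all genes were called, Ncr1 at -1.79, Klrd1 at -1.58, Gzma at -1.53, Eomes at -1.40 and Klrb1c at -1.24 (edgeR adjusted p between 2.16e-05 and 0.0122). Prf1, called above, was at -0.87 (edgeR adjusted p = 0.0304), short of the fold threshold. In Cav1-KO mice it gave Gzma at -1.60 and Klrd1 at -1.30 (edgeR adjusted p = 0.05 and 0.0264), where 0.695% of all genes were called. The 4 genes called above were not called with the term, Prf1 at -0.90, Tbx21 at -1.47, Gzmb at -1.09 and Klrb1c at -1.51 (edgeR adjusted p = 0.28, 0.0941, 0.297 and 0.126). In Cav1-RC mice it gave Ncr1 at -1.10 (edgeR adjusted p = 0.0262), where 1.5% of all genes were called, and Klrb1c was at -1.08 (edgeR adjusted p = 0.0578).

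Between genotypes 3 of 108 pairs of gene and comparison (2.78%) were called, against 3.95% of such pairs over all genes. In normoxia no gene was called by edgeR for Cav1-KO against Control in females or males, against 0.122% and 5% of all genes, nor for Cav1-RC against Cav1-KO, against 0.1% and 3.59%, nor for Cav1-RC against Control, against 0.137% and 2.45%. With the sexes averaged, the same 3 comparisons called 0 of 9 genes against 5.78%, 4.28% and 2.28% of all genes, with 1, 2 and 7 genes at an unadjusted p under 0.05. DESeq2 called Prf1 alone in female Cav1-RC against Cav1-KO, where it called 2.39% of all genes, and 0 in the others, and without female Cav1-RC normoxia replicate 2 edgeR called 2 there, Prf1 and Tbx21, against 16.2% of all genes. Without male Control normoxia replicate 1 it called 2 in male Cav1-KO against Control and 1 in male Cav1-RC against Control, against 9.75% and 6.14%. In male Cav1-KO normoxia all 9 log2 fold changes against Control were below 0, between -0.21 and -0.82, and 4 had an unadjusted p under 0.05, while every Cav1-KO library was lower in 1 of 9 genes by CPM, Prf1, against 15.5% of all genes, and in Klrb1c by FPKM as well (at most 1.60 against at least 1.62 FPKM). Their median of -0.57 was -0.29 without Control normoxia replicate 2. In female Cav1-RC normoxia all 9 were below 0 against Control as well, between -0.63 and -1.27, with 5 at an unadjusted p under 0.05. Both Cav1-RC libraries lay below all 3 Control libraries in 8 of 9 genes, a pattern of 8.28% of all genes. Against Cav1-KO females all 9 were again below 0, between -0.14 and -1.65 with a median of -0.90 and 3 at an unadjusted p under 0.05, and both Cav1-RC libraries lay below both Cav1-KO libraries in 7 of 9 genes, where 23% of all genes did. These comparisons share the same Cav1-RC libraries. Without female Control normoxia replicate 1, which held the highest values of Ncr1, Klrb1c, Klrd1, Nkg7, Gzma and Eomes in the series, the median of Cav1-RC against Control females went from -1.03 to -0.64.

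In hypoxia no gene was called by edgeR for Cav1-KO against Control in females or males, against 0.768% and 0.929% of all genes, nor with the sexes averaged, against 4.14%. The same held for Cav1-RC against Control, against 0.832% and 9.9%, and with the sexes averaged against 3.73%. In females every Cav1-KO library was below Control in 4 of 9 genes (Nkg7, Gzmb, Prf1 and Tbx21), against 16.3% of all genes, and every Cav1-RC library in 2 (Ncr1 and Gzma), against 7.17%. In males every Cav1-RC library was below Control in 1 gene, Klrd1, against 27.4%. Between 1 and 3 genes had an unadjusted p under 0.05 in each, and DESeq2 called 2 in female Cav1-KO against Control (Gzmb and Prf1), where it called 8.06% of all genes, and 0 in the others. In male Cav1-RC against Control, Klrd1 had -0.94 ± 0.27 (edgeR adjusted p = 0.0262), short of the threshold on the fold. Without female Control hypoxia replicate 1, edgeR called 3 genes in female Cav1-KO against Control (Klrb1c, Gzmb and Prf1), against 23.9% of all genes. In males Gzmb was called in Cav1-RC against Control without Control hypoxia replicate 2, against 11.8%, and Klrd1 without Control or Cav1-RC hypoxia replicate 3, against 7.7% and 8.05%. Ncr1 in males was at 5.22, 3.17 and 3.72 FPKM in Cav1-KO hypoxia and at 1.09, 3.37 and 1.23 FPKM in Control hypoxia. These groups, all on the blot list, overlap through the Control library with female sex markers, and the log2 fold change was 1.12 ± 0.44 (SE, n = 3 and 3, edgeR adjusted p = 0.211). Without that library, Control hypoxia replicate 2, Ncr1 was called, at 1.79 (edgeR adjusted p = 0.0192), against 2.92% of all genes.

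Cav1-RC against Cav1-KO in hypoxia was the genotype comparison with calls, and they went both ways. In females Gzmb was called higher in Cav1-RC, 1 of 9 genes against 5.58% of all genes. It was at 2.55, 3.13 and 3.94 FPKM in Cav1-RC and at 1.48, 1.55 and 1.57 FPKM in Cav1-KO libraries, which do not overlap, and its log2 fold change was 1.05 ± 0.28 (SE, n = 3 and 3, edgeR adjusted p = 0.0335). In males Ncr1 and Klrd1 were called lower in Cav1-RC, 2 of 9 genes against 6.59%, with log2 fold changes of -1.31 ± 0.27 and -1.05 ± 0.24 (edgeR adjusted p = 0.00517 and 0.00794). Ncr1 was at 1.63, 2.02 and 1.31 FPKM in Cav1-RC and at 5.22, 3.17 and 3.72 FPKM in Cav1-KO, and Klrd1 at 2.15, 3.37 and 3.54 FPKM against 6.65, 6.83 and 5.15 FPKM, with no overlap for either. In females every Cav1-RC library was higher in 2 of 9 genes, Gzmb and Tbx21, against 21.3% of all genes, and lower in 2 by CPM, Ncr1 and Klrd1, against 23.1%, and in males lower in 2, against 28.3%. By FPKM the female groups of Ncr1 overlap, at most 2.28 in Cav1-RC and at least 2.27 FPKM in Cav1-KO. With the sexes averaged, Ncr1 alone was called, at -1.09 ± 0.22 (SE, edgeR adjusted p = 0.00153), against 6.13% of all genes called lower. None of these calls remained with the term for the blot list, where Klrd1 in males was at 0.081 and Ncr1 at -0.64. The share of all genes that fit called in these comparisons is not given here. The Gzmb call in females was lost without any 1 of the Cav1-KO libraries or without Cav1-RC replicate 2 or 3, against 4.6% to 8.13% of all genes called in either direction. In males Ncr1 alone was called without Cav1-KO replicate 1 or 2 or Cav1-RC replicate 1, against 11.8% to 17.8% of all genes. With the sexes averaged 0 were called without female Cav1-KO replicate 2, the library with Y chromosome reads, and 2 without male Cav1-RC replicate 1, against 14.4% and 15% of all genes. Other cell types differed between these groups as well. In females neutrophil markers summed to 246 to 487 CPM in Cav1-RC and 97.3 to 148 CPM in Cav1-KO libraries, with 8 of 10 called higher in Cav1-RC, and B cell markers to 188 to 219 CPM and 44.4 to 139 CPM, with 6 of 10 called higher. In males all 8 erythroid markers were called lower in Cav1-RC, at 388 to 828 CPM against 1620 to 21034 CPM, and 3 of 10 B cell markers higher. Their part in the result was not tested.

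**Figure D3:**
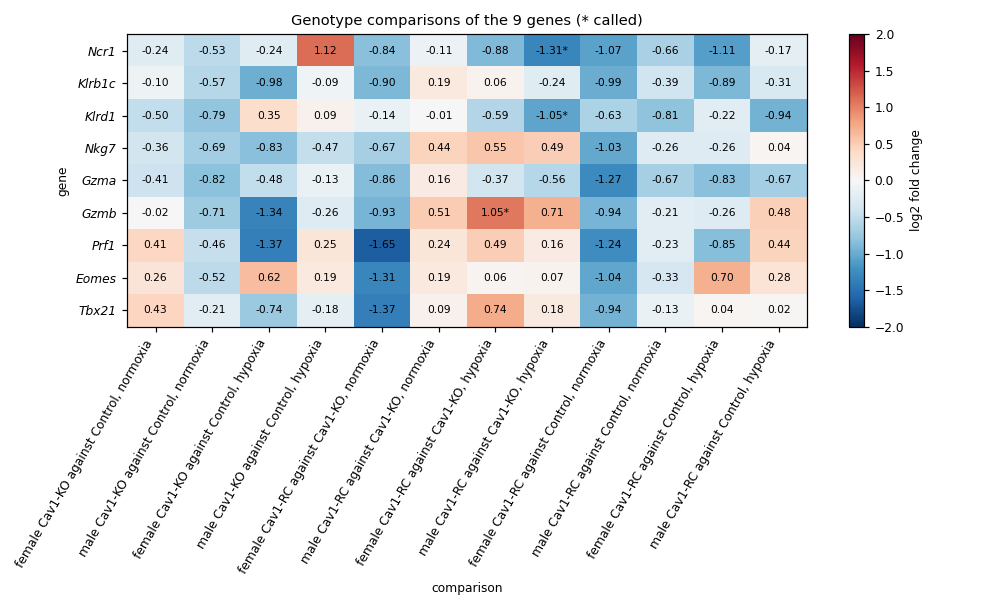
Log2 fold changes (colour and printed value) of the 9 genes in the 12 genotype comparisons from edgeR, with an asterisk on called genes. The 3 calls lie in the hypoxia comparisons of Cav1-RC with Cav1-KO, and the column of female Cav1-RC against Control in normoxia runs from -0.63 to -1.27.

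Across the 34 libraries the genes followed each other to unequal degrees. The closest pair was the receptor Ncr1 with the granule protease Gzma (Pearson r of log2 CPM 0.91, and 0.89 after group means were removed), followed by Klrb1c with Gzma (0.89) and Ncr1 with Klrb1c (0.87). Gzmb and Prf1 also went together (0.86). The lowest value was that of Klrd1 with Prf1, at 0.27 over all libraries and -0.14 within groups. These are descriptions over libraries that share groups, depth and the blot list.

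Of the genes outside the 9 with a mean of at least 1 CPM, those most like the mean of their standardised levels were Klri2 (r = 0.90), Klrg1 (0.85), Klra9 (0.82), S1pr5 (0.80), Samd3 (0.78), Fibin (0.78), Frrs1 (0.76), Ccl5 (0.76), Plvap (0.75) and Txk (0.75), all over 34 libraries. Klri2, Klrg1 and Klra9 encode lectin-like receptors of NK cells, S1pr5 a sphingosine phosphate receptor used for their trafficking, Ccl5 a chemokine and Txk a lymphocyte kinase. Within groups the correlation stayed at 0.82 for Ccl5, 0.74 for Klrg1 and 0.70 for Klri2, but was 0.04 for Fibin, -0.02 for Frrs1 and 0.04 for Plvap, an endothelial diaphragm gene.

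Other genes of the cytotoxic programme were read from lists by role, each described by its calls in the 6 hypoxia comparisons beside the 31.5% of pairs called lower among the 9 genes and the 3.48% among all genes. Of 26 further NK receptors and adaptors in the tables, 16 of 141 pairs tested (11.3%) were called lower and 2 higher. Between genotypes, 10 of 280 pairs of this list were called higher and 9 lower. Slamf7, a receptor of the SLAM family, was called lower in Control males (-1.48) and in Cav1-KO females and males (-1.63 and -1.504), and Klrc2, an activating partner of CD94, in Cav1-RC males (-1.67). Over all pairwise comparisons Klrc2 had 4 calls, all lower. Cd244a, the SLAM family receptor 2B4, was called lower in Cav1-KO females (-1.39) and higher in 3 genotype comparisons, those of the hypoxia groups of Cav1-RC and Cav1-KO females and males (1.40 and 1.40, Cav1-RC higher) and of Cav1-RC and Control males (1.57, Cav1-RC higher). Klri2 was called lower in Cav1-KO females and males (-1.67 and -1.06) and in Cav1-RC males. Of 13 Ly49 receptor genes, whose near-identical copies make counts uncertain, 2 of 53 pairs were called lower and 2 higher. Klra8, the activating receptor Ly49H, was called lower in Cav1-RC males (-1.62) and higher in Cav1-KO males (1.28). The pseudogene Klra13-ps was called higher in Cav1-KO males (1.44) and Klra14-ps lower in Cav1-RC males (-1.88). Between the hypoxia groups of Cav1-RC and Cav1-KO, Klra13-ps and Klra8 were called lower in Cav1-RC females (-1.91 and -2.33) and males (-2.12 and -2.49).

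Of 16 further granule contents, 2 of 58 pairs were called lower and 3 higher. Serglycin (Srgn), the matrix of the granule that many blood cells also make, was called higher in Control males (1.08) and in Cav1-KO females and males (1.10 and 1.16), and Ctsc, the protease that activates granzymes, was called lower in Cav1-KO females and males (-1.08 and -1.10). Gzmk, a granzyme of memory T cells and some NK cells, was called in no hypoxia comparison and higher in 3 genotype comparisons of males, Cav1-RC against Cav1-KO in normoxia (1.87) and hypoxia (2.12) and against Control in hypoxia (2.36). Gzmd, Gzme, Gzmg and Gzmn were at 0 in all 34 libraries. Of 11 genes of granule release, 0 of 66 pairs were called in either direction, and Coro1a, an actin regulator of leukocytes, was called higher in Cav1-RC against Cav1-KO females in hypoxia (1.20). Of 4 serpin genes (Serpinb9, Serpinb9b, Serpinb6b and Serpina3g) 1 of 22 pairs was called lower and 1 higher. Both were Serpina3g, a serpin of lymphoid and myeloid cells, at -1.25 in Cav1-KO females and 1.42 in Cav1-RC males.

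Regulators and signals were read in the same way. Of 16 transcription factors, 7 of 90 pairs were called lower and 1 higher. Runx3 was called lower in Control males (-1.53) and in Cav1-KO females and males (-1.85 and -1.47), while Ikzf3 was called lower in Control males and Cav1-KO females (-1.25 and -1.11), as was Tox2 (-1.09 and -1.23). In Cav1-RC against Cav1-KO hypoxia Runx3 was called higher in females and males (1.78 and 1.29) and Ikzf3 in females (1.68). Of 16 cytokines and their receptors, 7 of 87 pairs were called lower. Il2rb, the chain through which IL-15 sustains NK cells, was lower in Control males (-1.28) and in Cav1-KO females and males (-1.63 and -1.34), and had -0.65 in Cav1-RC males without passing. Tgfbr2, a receptor of TGF-beta that many lung cells carry, was called lower in Cav1-KO females and males (-1.02 and -1.58) and higher in Cav1-RC against Cav1-KO hypoxia (1.10 and 1.39), as Il2rb was (1.28 and 1.22), and in males against Control (1.02). Il12rb2, a chain of the IL-12 receptor, was called lower in Cav1-KO females and males (-4.25 and -2.40) and higher in Cav1-RC against Cav1-KO females in hypoxia (3.51). Of 16 chemokines and trafficking receptors, 8 of 90 pairs were called lower and 2 higher, among them S1pr5 in Control males (-1.21) and Cav1-KO females (-1.86). S1pr5 was called higher in Cav1-RC against Control males in hypoxia (1.04), while the chemokine Cxcl12 was called higher in Control males (1.49) and Cav1-RC males (1.28) and Cx3cl1 lower in Control and Cav1-KO males (-1.80 and -1.18). Of 17 ligands on target cells, 6 of 90 pairs were called lower and 4 higher. Tnfrsf10b, a receptor for the death ligand TRAIL, was called higher in Cav1-KO females (1.22), in Cav1-KO against Control males in normoxia (1.28) and in hypoxia in females and males (2.25 and 1.58), and lower in Cav1-RC against Cav1-KO hypoxia (-1.87 and -1.52). H60c, a ligand of the receptor NKG2D, was called lower in Control, Cav1-KO and Cav1-RC males (-1.89, -1.52 and -1.68) and Cav1-KO females (-2.71), and B2m, the light chain of MHC class I, lower in Cav1-KO females (-1.19) and higher in Cav1-RC against Cav1-KO hypoxia in females and males (1.12 and 1.07).

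Markers of other cells were read from lists as well. T cell markers were called lower in 8 of 120 hypoxia pairs (6.67%), 2 of 20 in Cav1-KO females and 6 of 20 in Cav1-KO males, and in 0 of 20 in the other 4 comparisons. In Cav1-RC males, where 5 of the 9 genes were called, the summed T cell level was 191 to 216 CPM in normoxia and 145 to 166 CPM in hypoxia. In male Cav1-KO against Control in normoxia 8 of 20 T cell and 4 of 10 B cell markers were called lower, with medians of -1.11 and -1.11, and 0 of the 9 genes, all of which were below 0 as well. The difference between lists was not tested. In Cav1-RC against Cav1-KO in hypoxia 10 of 20 were called higher in females and 6 of 20 in males. Cd3e, a chain of the T cell receptor complex, was there at 2.09 in females and 2.39 in males. Cd8b1 of cytotoxic T cells was at 2.35 and 2.42. Both were named for having the most calls of their list, and do not stand for it. The 9 genes went both ways, with 6 above 0 in females and 5 in males and medians of 0.064 and 0.069. They ran from -0.88 (Ncr1) to 1.05 (Gzmb) in females and from -1.31 (Ncr1) to 0.71 in males. In genotype comparisons neutrophil markers were called higher in 30 of 105 pairs and B cell markers in 20 of 120 (and lower in 5). B cell markers were called lower in 4 of 60 hypoxia pairs, gamma delta T and ILC2 markers in 1 of 48 (and higher in 3), macrophage markers in 9 of 60 and markers of lung epithelium, endothelium and stroma in 1 of 60 (and higher in 3). Neutrophil markers were called higher in 11 of 52 pairs and lower in 0, and erythroid markers higher in 12 and lower in 10 of 46 pairs. What these cell types contribute to the levels of the 9 genes was not tested.

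**Figure D4:**
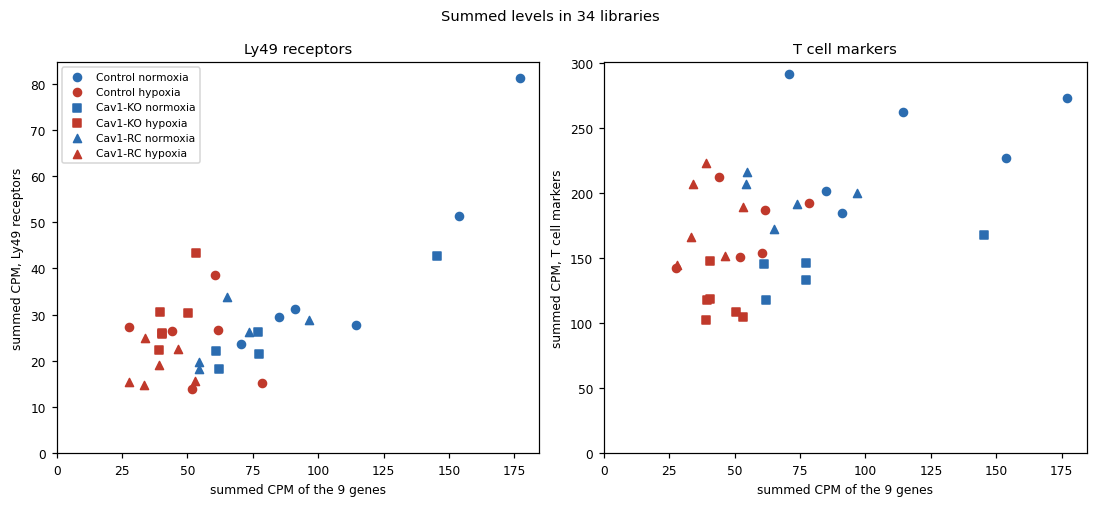
Summed CPM of Ly49 receptor genes (left) and T cell markers (right) against the summed CPM of the 9 genes in 34 libraries, coloured by oxygen and shaped by genotype. Summed over the 9 genes, Cav1-RC libraries reach 27.8 to 53.0 CPM in hypoxia and 54.2 to 96.6 CPM in normoxia, and the T cell levels of Cav1-KO hypoxia libraries are 102 to 148 CPM beside 145 to 223.2 CPM in Cav1-RC hypoxia.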

How the data were processed

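The authors mapped reads of poly-A, directional libraries to mm10 with HISAT2 2.0.5 and counted them per gene with featureCounts 1.5.0-p3, as the submitters' notes and methods give it, both with default parameters. The featureCounts default ignores strand, so reads of a gene and an antisense partner cannot be told apart. They deposited raw counts per gene and FPKM of the same genes, normalized by the authors for gene length and library total. From these the counts were tested with edgeR 4.0.16 in R 4.3.3 (TMM normalization, filterByExpr, which kept 16981 to 19538 genes, glmQLFit and glmQLFTest) on the libraries of the groups compared, with Benjamini-Hochberg adjustment over all genes tested. Each standard error was taken as |log2 fold change| over the root of the F statistic. FPKM show levels only, and 18 pairwise comparisons, 9 with the sexes averaged, 9 female minus male differences and 3 differences of the hypoxia response were made. The members and the lists were chosen with earlier results of these data known. Named beside the 9 members were Cav1, up to 3 genes of each cytotoxic list, and Cd3e and Cd8b1 of the T cell markers, by the number of pairwise comparisons that called them, and the 10 genes most like the members. The 4 granzymes at 0 were named after their values were seen.

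Replicates are mice, and groups follow the labels throughout. 1 library of uncertain group entered no comparison. Alternatives were edgeR with size factors from DESeq2 1.42.0, DESeq2's own Wald test, no low-count filter, no fold threshold, limma 3.58.1 on FPKM after log2 with 0.1 or 1 added (the latter also unfiltered), 1 fit over 34 libraries with and without a blot list term, a replicate block, and leaving out libraries. The fit without a fold threshold, the size of the blot list term, and all alternatives on comparisons other than the pairwise ones were chosen after seeing the data. The test was checked on simulated counts. Totals were 12425535 to 33343006 counts per library. Differences below the spread of 2 or 3 mice are not detectable at this depth.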

Additional observations from a re-analysis of the deposited data

Results flagged for a closer look

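In 3 of the 9 genes the response to hypoxia differed between Cav1-RC and Cav1-KO mice by a test of the difference itself, with the sexes averaged, where 8.29% of all genes were called higher. The Cav1-RC minus Cav1-KO difference was 1.11 for Gzmb, 1.05 for Prf1 and 1.12 for Tbx21 on the log2 scale (edgeR adjusted p = 0.0268, 0.0393 and 0.012). Gzmb fell by 1.501 in Cav1-KO mice and had -0.39 in Cav1-RC mice, Prf1 -1.83 and -0.77, and Tbx21 -1.60 and -0.47. In the fit with the blot list term, Prf1 was at -0.041, and no difference was called. None was called without replicate 1 of female Cav1-KO normoxia or of female Cav1-RC normoxia.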

How the results depend on the processing

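Of 317 alternative values of 22 results, 273 were counted as kept. For a median this meant within 0.358 of the main value, the SD between replicates, whatever its sign. For a count of calls it meant a count of similar size. The counts below stand without the share of all genes that each setting called. A general rise or fall in calls can therefore not be told from a change in the members. The median of female Cav1-KO against Control in normoxia went from -0.099 to 0.15 without the blot list libraries and counts as kept. Over the 18 pairwise comparisons 20 pairs of gene and comparison were called, against 7 with the blot list term and 8, 5 and 4 by limma on log2(FPKM + 0.1), log2(FPKM + 1) and the latter unfiltered. With the sexes averaged 8 such pairs were called, against 14 in 1 fit over 34 libraries, 14 by DESeq2, 13 without the fold threshold, and 5, 2 and 2 by the same limma fits. Of the sex differences 0 pairs were called, and 4 without the low-count filter. Of the differences of the hypoxia response 3 were called, against 1 in 1 fit over 34 libraries, 1 with the blot list term (Eomes, Cav1-RC minus Control) and 0 and 0 by limma on log2(FPKM + 1) with and without the filter. With the blot list term Klrd1 in male Cav1-RC against Cav1-KO hypoxia went to 0.081 and Prf1 in the Cav1-RC minus Cav1-KO response to -0.041, and the members' median went to 0.53 in female Cav1-RC against Cav1-KO hypoxia and to -1.80 in female Cav1-KO hypoxia against normoxia. Without libraries against their labelled sex that median turned from -0.093 to 0.33 in male Cav1-KO against Control hypoxia and from 0.19 to -0.27 in male Cav1-RC against Cav1-KO normoxia, and was -0.75 in male Cav1-RC against Control normoxia, 0.42 in female Cav1-RC against Cav1-KO hypoxia, and -1.77 and -0.68 in male Control and male Cav1-RC hypoxia against normoxia. By limma on log2(FPKM + 1), with and without the filter, it was -0.85 in male Control and -0.62 in male Cav1-RC hypoxia against normoxia. The cause was not tested.

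With 1 library left out, the median ran from -0.72 to 0.35 in female and -0.73 to -0.29 in male Cav1-KO against Control normoxia, -0.34 to 0.33 in male Cav1-KO against Control hypoxia, -1.33 to -0.37 in normoxia and -0.020 to 0.42 in hypoxia for female Cav1-RC against Cav1-KO, -1.24 to -0.64 in normoxia and -0.65 to -0.23 in hypoxia for female Cav1-RC against Control, and -0.37 to 0.24 in hypoxia for the males. For hypoxia against normoxia it ran from -1.77 to -0.97 in male Control, -1.72 to -0.77 in female Cav1-KO and -0.45 to 0.090 in female Cav1-RC mice, and for the female minus male difference of Cav1-KO against Control in normoxia from -0.0026 to 0.90.

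Replicate numbers pair no animals by the labels. Same-numbered libraries had correlations of their deviations between -0.165 and 0.565, 11 of 49 over 0.1. With a replicate block 5 pairs of gene and comparison were called with the sexes averaged, and the median in female Cav1-RC hypoxia against normoxia was -0.45.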

Other observations

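The library of uncertain group is titled as possibly female Cav1-KO normoxia, and its animal number is also on the blot list. It held 12.2 FPKM of Gzma, 5.12 FPKM of Klrd1, 2.77 FPKM of Nkg7, 2.63 FPKM of Ncr1, 0.847 FPKM of Gzmb, 0.823 FPKM of Prf1, 0.462 FPKM of Tbx21, 0.456 FPKM of Klrb1c and 0.447 FPKM of Eomes. Its Gzmb and Nkg7 lay below the lowest assigned library, at 1.03 and 3.80 FPKM.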
